A study of Homo sapiens with 24 samples.

Results

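The ligands and receptors of axon guidance were followed in Panc-1 cells, a human pancreatic ductal adenocarcinoma line, after expression of an acinar transcription factor. Genes were taken by symbol alone, as the semaphorins, plexins, neuropilins, EPH receptors, ephrins, SLIT ligands, ROBO receptors, netrins, UNC5 receptors and the CRMP/DPYSL proteins. Among 14426 genes in at least 1 of 3 deposited tables, 61 fit this rule, and 54 of them were in every table. Another 12 human genes whose symbols fit were in no table and were not analysed here. Each of the 3 lines was 1 clone of Panc-1 cells that carried a puromycin-selected Tet-One plasmid. Tet-One cells held the empty plasmid, Tet-MIST1 cells an inducible rat MIST1 with a myc tag, and Tet-PTF1a cells an inducible mouse PTF1a with a myc tag. Polyadenylated RNA was sequenced from 4 Control cultures without doxycycline and from 4 Dox cultures kept in 1 µg/ml doxycycline for 72 h, so that 24 libraries were compared. Since a line was a single clone, the spread between replicates is that between cultures of this clone, and a clone cannot be told apart from the plasmid it carries. The cells were at passage 32 in Tet-PTF1a and Tet-One and at passage 33 in Tet-MIST1. Passage therefore cannot be told apart from line where Tet-MIST1 is set beside the others.

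Guidance molecules steer growing axons by attraction and repulsion, and many epithelial and tumor cells use the same pairs of ligand and receptor to control adhesion, migration and the formation of boundaries. Most secreted class 3 semaphorins signal through a neuropilin paired with an A plexin, and most membrane semaphorins bind plexins directly. Ephrins bind EPH receptor tyrosine kinases on a neighboring cell, SLIT proteins bind ROBO receptors and netrins bind UNC5 receptors. The CRMP proteins carry semaphorin signals to microtubules inside the cell. MIST1 and PTF1a are basic helix-loop-helix (bHLH) factors of pancreatic acinar cells that bind the E box, a DNA element with the letters CANNTG.

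Libraries held 17210989 to 43018494 counts in Tet-PTF1a, 33402628 to 42510942 in Tet-MIST1 and 35863825 to 41648040 in Tet-One. Reads at the human PTF1A locus, which is not the mouse sequence in the plasmid, numbered 0 to 2 in Control and 53 to 168 in Dox libraries of Tet-PTF1a. The rat MIST1 has no row of its own, and its human homolog BHLHA15 was not listed in the Tet-MIST1 table, so that no row checks the labels of that line. The biological coefficient of variation was 2.80% in Tet-PTF1a, 6.58% in Tet-MIST1 and 14.4% in Tet-One, and it was 4.79% in Tet-One without Dox replicate 1. That library was the lowest of 8 for 36 of 51 axon guidance genes and for 40.0% of all genes. Its genes with over 8000 exon bases sat at a median of -0.60 from the line's mean on the log2 scale, and those under 2000 bases at 0.45. The same contrast was smaller in Tet-MIST1 Dox replicate 1 (-0.28 and 0.18), which was lowest for 22 of 50 axon guidance genes. The median exon length was 5344.5 bases for the axon guidance genes and 3220 bases for all genes in Tet-PTF1a, so these libraries bear on the results for both other lines. The listed epithelial markers were led by KRT8 in each line. Of 13 neuronal markers 5 were listed in Tet-PTF1a and 6 in each other line, among them MAP2, TUBB3 and SYP, whereas RBFOX3, STMN2, ELAVL3, ELAVL4, GAP43 and DCX were in no table. Of 8 endothelial markers 1, ERG, was listed, at 2.23 to 3.64 CPM in Control cells, and PECAM1, CDH5 and VWF were in no table.

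To compare genes with each other, counts were scaled by exon length and library depth (RPKM), with 1 set of TMM factors over all 24 libraries. SEMA4B, a membrane semaphorin, was the highest of the axon guidance genes in every line without Dox, at a level of 171 ± 3.79 RPKM in Tet-PTF1a, 252 ± 11.7 in Tet-MIST1 and 319.7 ± 15 in Tet-One (mean ± SD, n = 4). The secreted SEMA3C measured 101 ± 5.23, 42.9 ± 1.65 and 27.9 ± 2.01 RPKM, and the ephrin-A receptor EPHA2 53.7 ± 1.02, 93.4 ± 3.26 and 71.3 ± 4.30 RPKM in the same order. EPHA2 held the second rank in Tet-MIST1 and Tet-One and SEMA3C in Tet-PTF1a, and PLXND1, PLXNA1, EPHB4 and PLXNB2 followed within the first 7 of every line. The semaphorins summed to 312 RPKM in Tet-PTF1a, 342 in Tet-MIST1 and 385 in Tet-One, the EPH receptors to 105, 136 and 125 RPKM, and the plexins to 114, 95.8 and 129 RPKM. SLIT ligands summed to 1.13, 5.36 and 1.09 RPKM.

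Several receptors and ligands were at very unequal levels in the 3 clones before any Dox was given. NRP2, a neuropilin, measured 29.6 CPM in Tet-PTF1a, 0.355 in Tet-MIST1 and 5.50 in Tet-One Control cells on the shared scale. EPHB1, an ephrin-B receptor, measured 1.10, 12.5 and 0.199 CPM, and the plexin PLXNA2 4.11, 9.35 and 0.199 CPM. EFNB2, a transmembrane ephrin, measured 11.3, 0.0882 and 4.05 CPM. Thus NRP2 and EFNB2 were lowest in Tet-MIST1, whereas EPHB1 and PLXNA2 were highest there. SLIT3 was 50.9 CPM in Tet-MIST1 against 9.06 in Tet-PTF1a and 9.80 in Tet-One. EPHA5 had 0 counts in all 8 Tet-MIST1 libraries, where a count of 0 allows up to 3 counts, or 0.0898 CPM at most. These levels are given as a description, with no test between clones.

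**Figure D1:**
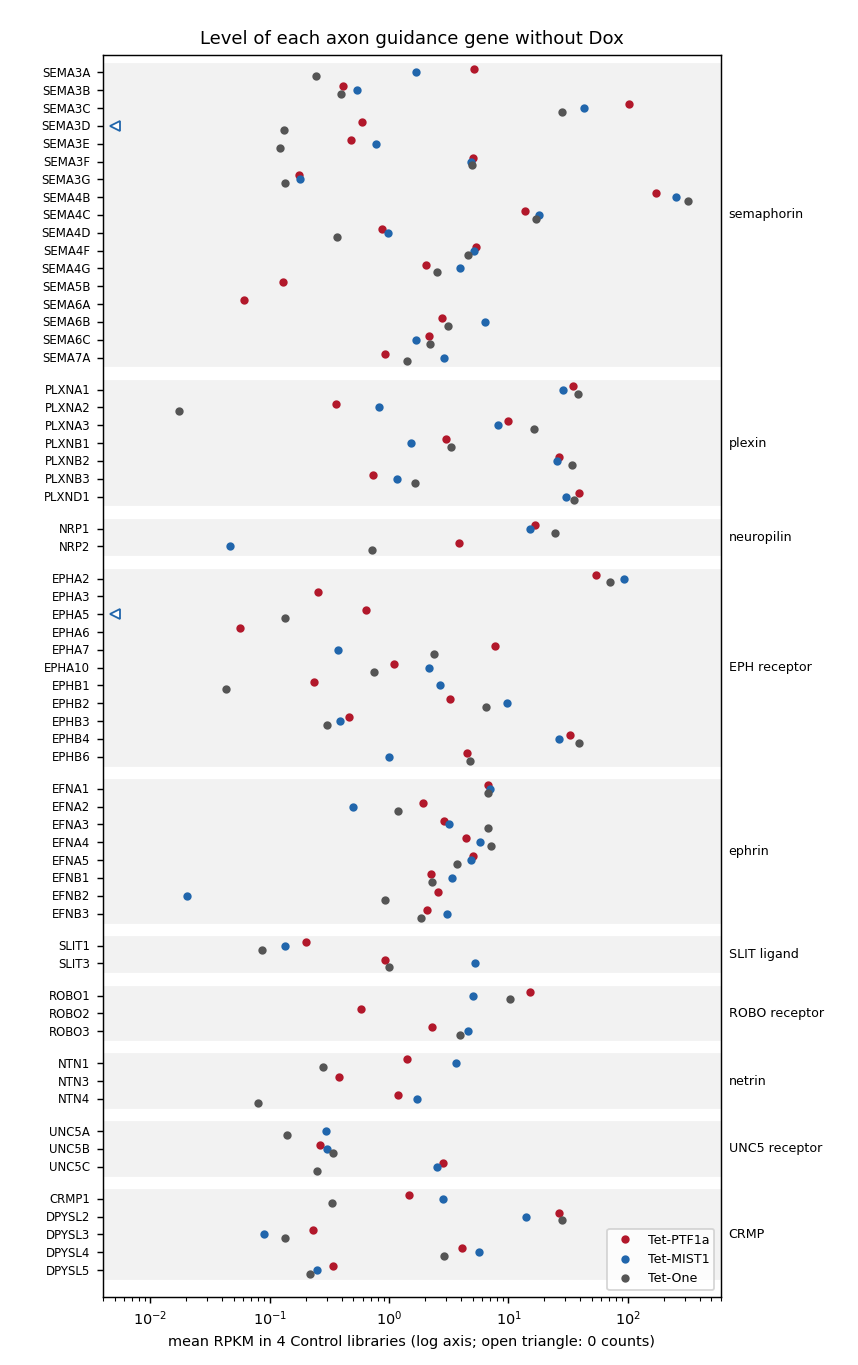
Mean RPKM of each axon guidance gene in the 4 Control libraries of Tet-PTF1a (red), Tet-MIST1 (blue) and Tet-One (gray), on a log axis, grouped by family; open triangles mark genes with 0 counts. SEMA4B, SEMA3C and EPHA2 lie farthest right, and NRP2, EPHB1, PLXNA2 and EFNB2 are spread widely between lines.

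Dox in Tet-PTF1a cells changed 40 of the 60 axon guidance genes listed, all of which passed the filter of 0.5 CPM in at least 4 of 8 libraries. Of these, 25 rose and 15 fell at an FDR under 0.05, that is 41.7% and 25.0%, whereas 23.8% of all 14053 genes rose and 24.4% fell. Most changes were small: the median absolute log2 fold change was 0.285 for these genes and 0.122 for all genes. A log2 fold change of 1 in size was passed by 7 of the genes that rose and 3 of those that fell. The share of all genes beyond that size was not counted. EPHA6 and SEMA6A, counted among the 25 and among the 7, passed the filter through their Dox libraries, in which they are higher. The signed median was 0.05, against 0.0015 for all genes. Ligands rose in 15 of 30 cases and fell in 3. Receptors rose in 10 of 25 cases and fell in 10. In bulk RNA, fewer cells that make a transcript and less transcript per cell cannot be told apart. Summed epithelial markers went from 3480 to 3652 CPM in Control to 1772 to 1826 CPM in Dox libraries, and the 5 of 13 neuronal markers that were listed, led by MAP2, from 624.1 to 648.4 CPM in Control to 359.6 to 368.6 CPM in Dox. Members of both lists went either way: among the 8 epithelial markers listed 5 fell, with KRT8 (-1.30) and KRT18 (-1.10) carrying the sum, and 3 rose, KRT7 (1.64), CDH1 (0.82) and SOX9 (0.30), all as log2 fold changes. Of the neuronal ones MAP2 (-1.12) and TUBB3 (-0.71) fell and SYP (1.03) rose. The part of either shift in the values below was not tested.

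**Figure D2:**
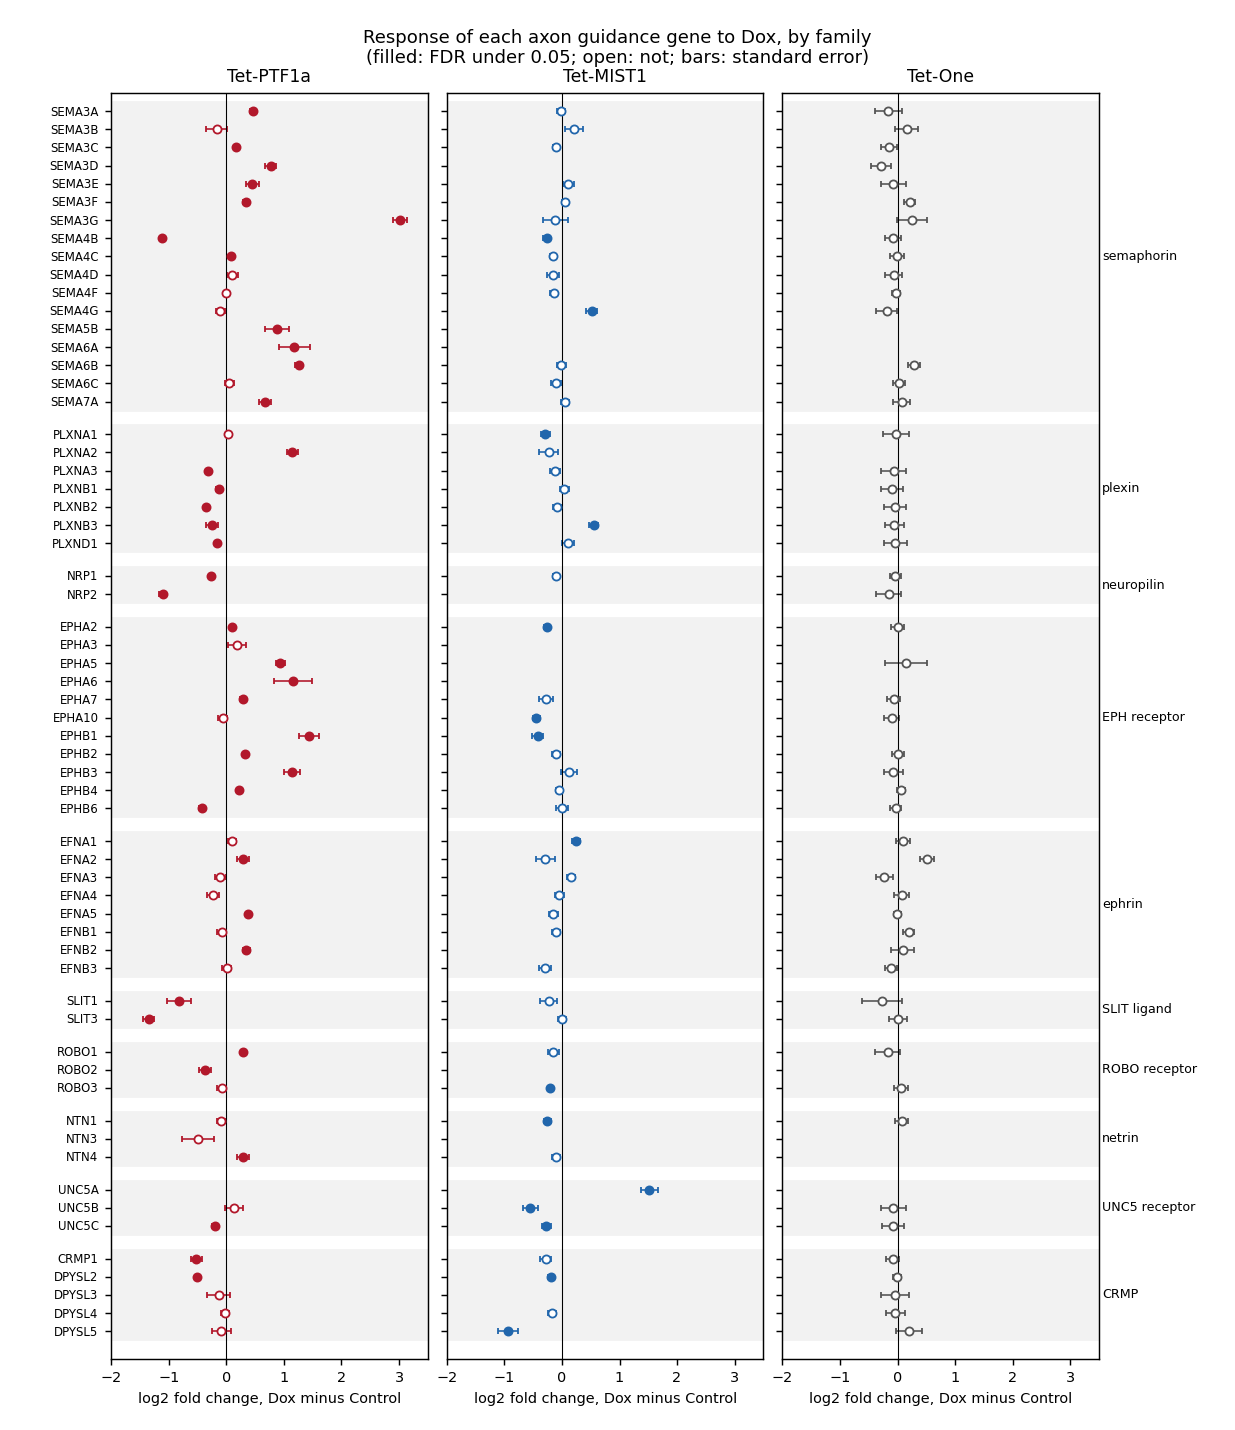
Log2 fold change with Dox (Dox minus Control, standard error as bars) of each axon guidance gene in Tet-PTF1a, Tet-MIST1 and Tet-One, by family; filled points have an FDR under 0.05, and a gene without a point was not tested in that line. Tet-PTF1a holds 40 filled points, Tet-MIST1 15 and Tet-One 0.

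Semaphorins were the family with the most genes to rise in Tet-PTF1a, with 11 higher and 1 lower of 17 and a median log2 fold change of 0.34. SEMA3G, a secreted class 3 semaphorin (chr3:52467268-52479043, minus strand, hg19), measured 0.967, 0.728, 0.794 and 0.945 CPM in the Control libraries and 8.15, 7.82, 8.34 and 7.10 CPM in the Dox libraries. Every Dox library was thus far above every Control library, with a log2 fold change of 3.02 (SE 0.13, FDR 2.46e-26), a fold of 8.10, the largest among these genes. SEMA6B, a transmembrane semaphorin, measured 10.4, 12, 12.3 and 10.6 CPM in the Control libraries and 24.2, 26.1, 27.1 and 28.6 CPM in the Dox libraries. Its groups did not overlap, and the log2 fold change was 1.26 (SE 0.06, FDR 2.30e-23). SEMA7A, which is held to the membrane by a lipid anchor, measured 3.42, 3.02, 3.37 and 3.23 CPM in the Control libraries and 4.88, 5.98, 5.36 and 4.93 CPM in the Dox libraries, a change of 0.67 (SE 0.11, FDR 4.11e-07) without overlap. SEMA3D, another secreted ligand, measured 3.58, 3.70, 4.27 and 3.88 CPM in the Control libraries and 6.89, 6.22, 7.11 and 6.24 CPM in the Dox libraries, and all Dox libraries lay above all Controls (log2 fold change 0.77, SE 0.10, FDR 2.15e-09). SEMA5B, a transmembrane protein with thrombospondin repeats, stayed near the detection filter at 0.589, 0.672, 0.844 and 0.918 CPM in the Control libraries and 1.67, 1.56, 1.39 and 1.28 CPM in the Dox libraries. It nevertheless rose without overlap, by a log2 fold change of 0.88 (SE 0.21, FDR 1.81e-04).

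All 7 class 3 semaphorins were measured in Tet-PTF1a cells and 6 of them rose. Beside SEMA3G and SEMA3D these were SEMA3A (log2 fold change 0.46), SEMA3E (0.45), SEMA3F (0.34) and SEMA3C (0.16), the last of which is the most abundant, whereas SEMA3B did not pass the test (-0.17, FDR 0.448). SEMA6A measured 0.330, 0.280, 0.744 and 0.394 CPM in the Control libraries and 1.03, 0.990, 1.34 and 0.883 CPM in the Dox libraries. It passed the filter on low values through its Dox libraries, since 1 Control library was above 0.5 CPM, and rose by a log2 fold change of 1.18. SEMA4C rose by 0.09. SEMA4D, SEMA4F, SEMA4G and SEMA6C did not pass. In contrast, SEMA4B (chr15:90728152-90772892, plus strand, hg19) measured 671, 699, 703 and 709 CPM in the Control libraries and 322, 322, 320.0 and 319 CPM in the Dox libraries. Its Dox libraries were narrowly spaced and far below the Controls, with a log2 fold change of -1.12 (SE 0.02, FDR 1.32e-40) and a fold of 0.461. The summed level of the family went from 312 to 243 RPKM although most of its genes rose. SEMA4B was 171 RPKM of this sum in Control and 78.7 RPKM with Dox, when SEMA3C, at 113 RPKM, was the highest.

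The sequence before the start of SEMA3G and SEMA7A is shown because these ligands rose in the line that carries a bHLH factor and their promoter windows, 250 bases before to 50 bases after the start in RefSeq (GRCh38.p14), hold E boxes. Lower case marks the flanking bases and capitals mark each CANNTG match. For SEMA3G the stretch is chr3:52445189-52445344, minus strand, from base -241 to -86 of the start, with matches that begin at -226, -206 and -106. For SEMA7A it is chr15:74434124-74434159, minus strand, from -201 to -166, with CAGCTG beginning at -186.
SEMA3G: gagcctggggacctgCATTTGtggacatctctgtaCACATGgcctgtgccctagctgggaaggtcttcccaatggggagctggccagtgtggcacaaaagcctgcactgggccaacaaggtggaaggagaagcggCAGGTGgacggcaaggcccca
SEMA7A: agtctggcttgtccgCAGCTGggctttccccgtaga
Such matches were in 13 of 22 windows of genes that rose in Tet-PTF1a (59.1%) and 8 of 13 of those that fell (61.5%), against 68.9% of all windows. The window of SEMA4B holds none.

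The receptors of the semaphorins moved mostly the other way in Tet-PTF1a, with 5 of 7 plexins and both neuropilins lower. NRP2, a neuropilin that binds class 3 semaphorins and VEGF (chr2:206547224-206662857, plus strand, hg19), measured 27.9, 30.6, 32.3 and 31.5 CPM in the Control libraries and 14.5, 13.8, 15.2 and 13.3 CPM in the Dox libraries. The groups were far apart, at a log2 fold change of -1.11 (SE 0.06, FDR 4.42e-23). NRP1, its more abundant relative, measured 102, 106, 98.6 and 98.6 CPM in the Control libraries and 85.2, 85.6, 85.2 and 81.3 CPM in the Dox libraries and fell by 0.26 (SE 0.03, FDR 2.03e-10). The exception among plexins was PLXNA2, an A plexin that partners neuropilins, which measured 4.53, 3.36, 4.22 and 4.83 CPM in the Control libraries and 8.67, 8.77, 10.1 and 11 CPM in the Dox libraries and rose without overlap by 1.15 (SE 0.09, FDR 1.42e-14) on the log2 scale. PLXNA3 (-0.31), PLXNB2 (-0.35), PLXNB3 (-0.24), PLXND1 (-0.16) and PLXNB1 (-0.13) fell, and PLXNA1, the second most abundant plexin there, did not pass (0.04, FDR 0.160). The split of plexins shifted with scaling: with the total count as library size in place of TMM, PLXNB1 (FDR 0.139) and PLXNB3 (FDR 0.0879) lost their calls and PLXNA1 was called higher (FDR 0.00375).

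EPH receptors rose in 8 of 11 cases in Tet-PTF1a and fell in 1, with a median log2 fold change of 0.28. EPHB1 (chr3:134514099-134979307, plus strand, hg19), a receptor for B ephrins, measured 0.707, 1.46, 1.34 and 1.05 CPM in the Control libraries and 3.16, 2.4, 3.14 and 3.11 CPM in the Dox libraries. The Dox libraries all lay above the Controls, although 1 of them stood apart from the others, and the log2 fold change was 1.43 (SE 0.17, FDR 3.93e-10). EPHB3, another B receptor (chr3:184279587-184300196, plus strand, hg19), measured 1.6, 1.57, 2.38 and 2.49 CPM in the Control libraries and 3.85, 5.09, 4.43 and 4.69 CPM in the Dox libraries, an increase of 1.14 (SE 0.14, FDR 4.18e-10) without overlap. EPHA5, an A receptor known from the nervous system, measured 6.96, 6.72, 6.70 and 5.80 CPM in the Control libraries and 12.6, 12.1, 13.5 and 12.1 CPM in the Dox libraries, and its groups were separate (log2 fold change 0.94, SE 0.08, FDR 2.61e-15). It shares 535 of 9835 exon bases (5.44%) with EPHA5-AS1 on the opposite strand, and reads of the pair cannot be told apart without knowing whether strand was used in counting. EPHA5-AS1 itself had a mean of 0.388 CPM in Control and 0.756 CPM in Dox libraries.

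In smaller steps, EPHB2 (0.32), EPHA7 (0.28), EPHB4 (0.23) and EPHA2 (0.10) also rose on the log2 scale. EPHA6 is counted among the 8 as well, with a log2 fold change of 1.16. It measured 0.189, 0.392, 0.199 and 0.289 CPM in the Control libraries and 0.747, 0.518, 0.824 and 0.609 CPM in the Dox libraries, so that it passed the filter only through the Dox libraries, the group where it is high. EPHB6, which lacks kinase activity, fell by 0.42 (SE 0.06, FDR 4.60e-08) on the log2 scale. EPHA3 and EPHA10 did not pass. Among their ligands, 3 of 8 ephrins rose, namely EFNA5 (0.38), EFNB2 (0.35) and EFNA2 (0.29), and none of the 8 fell at this threshold in edgeR. EFNA5, anchored to the membrane by a lipid, measured 29.6, 28.3, 27.7 and 25.7 CPM in the Control libraries and 35.4, 36.0, 36.5 and 37.2 CPM in the Dox libraries, without overlap. EFNB2 shares 41.3% of its exon bases with an annotated antisense transcript, and EFNA3, which did not pass, 47.9% with the read-through gene EFNA4-EFNA3. The EPHB3 promoter is shown because it holds a pair of E boxes that lie close together. The stretch from RefSeq GRCh38.p14 is chr3:184561615-184561661, plus strand, from base -170 to -124 of the start, with matches in capitals that begin at -155 and -144.
EPHB3: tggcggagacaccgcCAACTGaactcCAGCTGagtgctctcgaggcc
The windows of EPHB1 and PLXNA2 hold no match.

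Both SLIT ligands fell in Tet-PTF1a. SLIT3 (chr5:168088738-168728133, minus strand, hg19), a secreted ligand of ROBO receptors, measured 8.70, 9.41, 9.48 and 9.81 CPM in the Control libraries and 2.87, 3.86, 3.5 and 3.96 CPM in the Dox libraries. The groups were well separated and the log2 fold change was -1.34 (SE 0.09, FDR 1.22e-17). SLIT1 was lower in abundance, at 1.63, 1.57, 1.24 and 2.15 CPM in the Control libraries and 0.919, 0.566, 1.29 and 0.975 CPM in the Dox libraries. Dox replicate 3 lay above the lowest Control library, so that the groups overlapped, while the log2 fold change of -0.82 (SE 0.21, FDR 4.65e-04) passed the test. Of the receptors, ROBO1 rose (0.28, SE 0.03, FDR 3.41e-13), ROBO2 fell (-0.37, SE 0.11, FDR 0.00355) and ROBO3 did not pass. The ROBO2 call remained in 7 of 8 fits that each left out 1 library.

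Of the 3 netrins and 2 UNC5 receptors tested in Tet-PTF1a, 1 of each kind passed the test, both with small changes. NTN4, a laminin-like netrin, rose by 0.29 (SE 0.10, FDR 0.0186), a call kept in 5 of 8 fits without 1 library and not made by DESeq2. NTN1 and NTN3 did not pass. UNC5C, a receptor for repulsion by netrin, fell by 0.20 (SE 0.05, FDR 7.99e-04) on the log2 scale and UNC5B did not pass (0.14, FDR 0.498). UNC5A was not in the Tet-PTF1a table. Among the CRMP proteins, DPYSL2, the most abundant, measured 142, 142, 139.7 and 147 CPM in the Control libraries and 98.5, 103, 95.9 and 103 CPM in the Dox libraries. The groups did not overlap, and it fell by 0.51 (SE 0.03, FDR 2.23e-21) on the log2 scale. CRMP1 measured 7.24, 5.54, 7.34 and 7.77 CPM in the Control libraries and 5.86, 4.90, 4.53 and 4.69 CPM in the Dox libraries, with 1 Dox library within the Control range, and fell by 0.52 (SE 0.10, FDR 1.12e-05). DPYSL3, DPYSL4 and DPYSL5 did not pass. EFNA2, SEMA4C, PLXNB1 and PLXNB3, like NTN4, were called by edgeR and not by DESeq2. With 1 library left out at a time, the calls of PLXNB1 and PLXNB3 were each kept in 2 of 8 fits, that of SEMA4C in 4 and that of EFNA2 in 6.

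**Figure D3:**
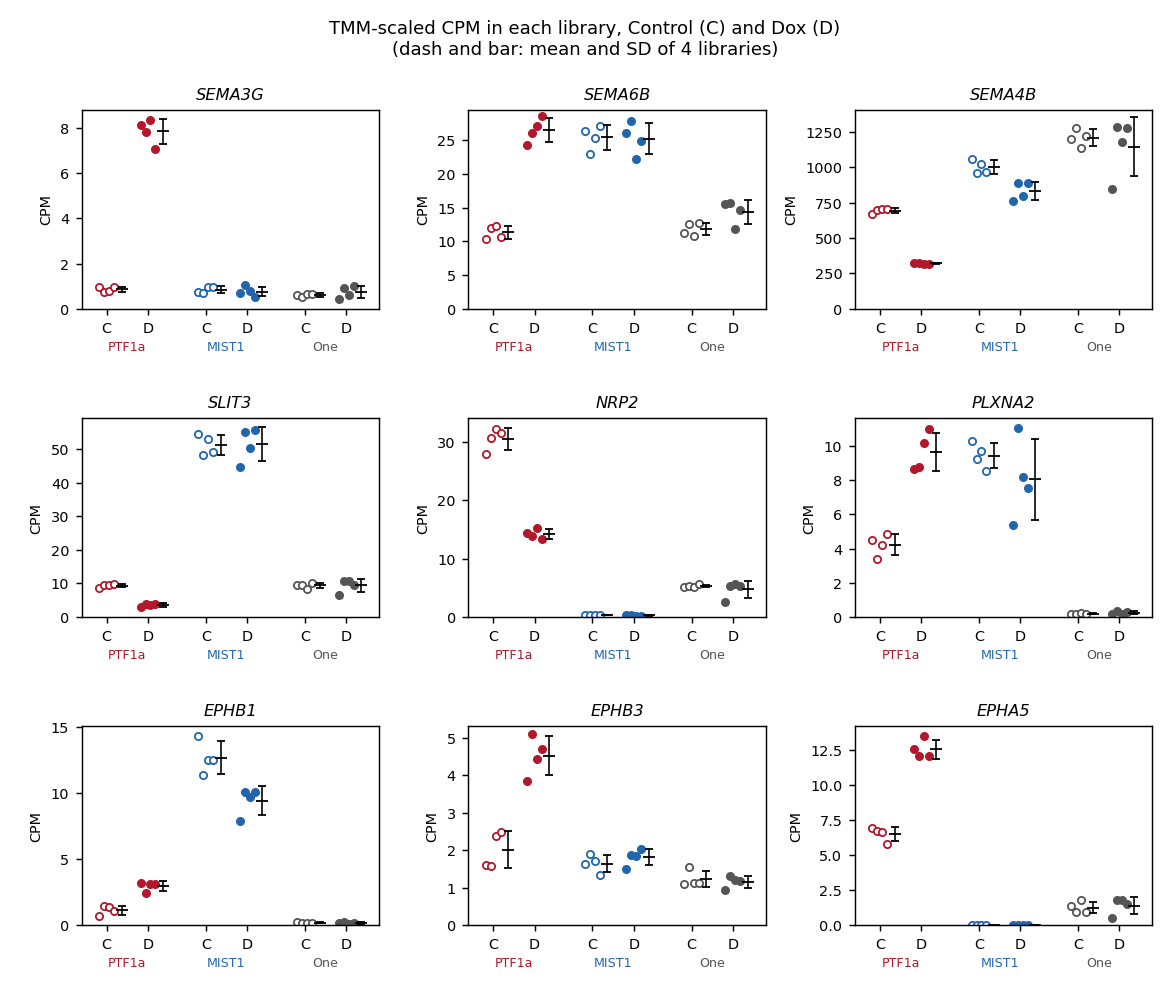
TMM-scaled CPM of 9 axon guidance genes in each Control (C, open) and Dox (D, filled) library of Tet-PTF1a (red), Tet-MIST1 (blue) and Tet-One (gray), with the mean and SD of 4 libraries beside them; scaling was within each line. In Tet-PTF1a the groups are separate in all 9 panels, with SEMA3G going upward and SEMA4B, SLIT3 and NRP2 downward.

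Dox in Tet-MIST1 cells changed 15 of 50 axon guidance genes tested, with 4 higher and 11 lower, against 11.9% of 13623 genes that rose and 8.77% that fell. The signed median log2 fold change was -0.11, and 1 gene, UNC5A, passed a size of 1. Once a trend with exon length and base composition had been taken out of each library, the median was -0.05, with 6 genes higher and 14 lower. Of all genes, 26.7% were then called in either direction, against 20.6% before. UNC5A, a dependence receptor for netrin (chr5:176237560-176307899, plus strand, hg19), measured 1.12, 0.96, 1.25 and 1.09 CPM in the Control libraries and 2.87, 3.10, 2.94 and 4.16 CPM in the Dox libraries. Every Dox library was above every Control, with a log2 fold change of 1.51 (SE 0.15, FDR 4.12e-05). The other receptors of this family fell. UNC5B measured 2.29, 1.92, 2.13 and 2.13 CPM in the Control libraries and 1.42, 1.72, 1.20 and 1.36 CPM in the Dox libraries, a change of -0.55 (SE 0.13, FDR 0.00996) without overlap, and UNC5C changed by -0.28 (SE 0.08, FDR 0.0298). Their ligand NTN1 fell as well (-0.25, SE 0.06, FDR 0.0149), while NTN4 did not pass.

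PLXNB3, a plexin that binds SEMA5A, measured 7.33, 7.33, 8.48 and 7.08 CPM in the Control libraries and 11.1, 12.2, 10.3 and 10.9 CPM in the Dox libraries. It rose without overlap, by 0.55 (SE 0.08, FDR 6.14e-04) on the log2 scale, and 19.6% of its exon bases are shared with SRPK3 on the same strand in GENCODE. SEMA4G, a membrane semaphorin, measured 18.3, 17.2, 18.1 and 15.7 CPM in the Control libraries and 20.7, 28.7, 25.2 and 24.6 CPM in the Dox libraries, again without overlap (0.51, SE 0.09, FDR 0.00255). It shares 738 of 4401 exon bases (16.8%) with MRPL43 on the opposite strand, which was at 85.9 CPM in Control and 87.5 CPM in Dox libraries (log2 fold change 0.03, FDR 0.722). EFNA1, an A ephrin, rose by 0.24 (SE 0.07, FDR 0.0306), a call that was kept in 4 of 8 fits without 1 library and lost (FDR 0.0651) after a correction for exon length and base composition. The PLXNB3 promoter in RefSeq GRCh38.p14 is shown because it holds a pair of E boxes 1 base apart. Its window also holds CAGCTG, beginning at base 22 after the start, which is not shown. The stretch is chrX:153764048-153764090, plus strand, from base -201 to -159 of the start, with capitals on the matches that begin at -186 and -179.
PLXNB3: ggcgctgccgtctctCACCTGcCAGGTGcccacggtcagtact
The window of UNC5A holds no match.

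In Tet-MIST1, DPYSL5, a CRMP protein of developing neurons, measured 1.32, 1.41, 1.44 and 1.20 CPM in the Control libraries and 0.534, 0.742, 0.883 and 0.543 CPM in the Dox libraries. All Dox libraries were below all Controls, at a log2 fold change of -0.94 (SE 0.17, FDR 0.00231). DPYSL2 fell by 0.19 (SE 0.05, FDR 0.0123), which was not called after that correction (FDR 0.112). Of the EPH receptors 3 of 8 fell and none of them rose in edgeR at this threshold. EPHA10, a receptor without kinase activity, measured 14.5, 13.5, 15 and 14.7 CPM in the Control libraries and 10.9, 11.2, 9.56 and 10.7 CPM in the Dox libraries, a log2 fold change of -0.44 (SE 0.06, FDR 8.25e-04) without overlap. EPHB1 went from 12.7 ± 1.24 to 9.43 ± 1.07 CPM (mean ± SD, n = 4; log2 fold change -0.42, SE 0.09, FDR 0.00893) and EPHA2 from 374 ± 13.8 to 311 ± 17.1 CPM (-0.26, SE 0.05, FDR 0.00418). SEMA4B, again the most abundant, fell by 0.27 (SE 0.06, FDR 0.0106) on the log2 scale. PLXNA1 fell by 0.29 (SE 0.08, FDR 0.0260) and ROBO3 fell by 0.20 (SE 0.05, FDR 0.0143). The groups did not overlap for any of the 15 genes. This also held for some genes that did not pass, since 18 of the 50 tested had no overlap. The share among all genes was not counted. With 1 library left out at a time, the call of UNC5C was kept in 3 of 8 fits, PLXNA1 in 5, and NTN1 and ROBO3 in 7. With Dox replicate 1 left out, the counts were 4 higher and 11 lower, the same as with it, whereas without Dox replicate 2 they were 3 higher and 19 lower. Of all genes, 25.7% and 27.6% were called in these fits, against 20.6% with every library. NRP2 (7 to 18 counts), EFNB2 (0 to 8), DPYSL3 (5 to 40), SEMA3D (0 in 7 libraries and 2 in the other) and EPHA5 (0 in all) were too low to be tested. The 35 genes that did not pass had log2 fold changes from -0.29 for EFNB3 to 0.21 for SEMA3B.

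**Figure D4:**
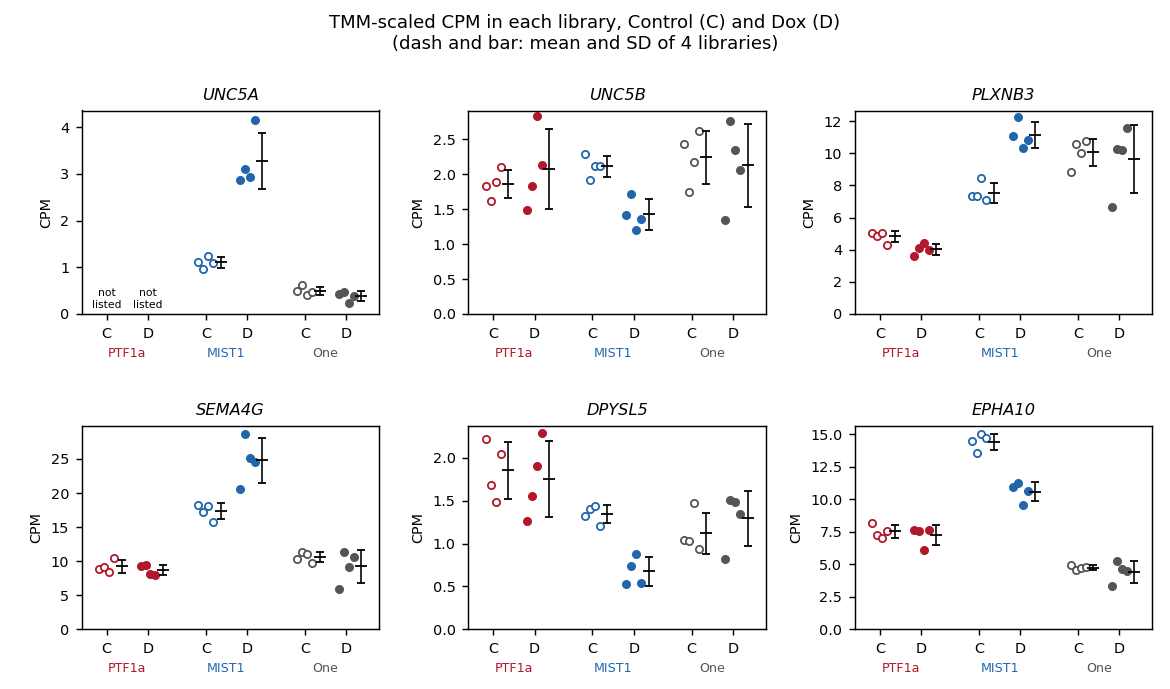
TMM-scaled CPM of 6 axon guidance genes in each Control (C, open) and Dox (D, filled) library of Tet-PTF1a (red), Tet-MIST1 (blue) and Tet-One (gray), with the mean and SD of 4 libraries; scaling was within each line and UNC5A was not listed in Tet-PTF1a. In Tet-MIST1, UNC5A, PLXNB3 and SEMA4G sit higher with Dox and UNC5B, DPYSL5 and EPHA10 lower, each without overlap.

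Doxycycline alone was examined in Tet-One cells, where 0 of 51 axon guidance genes tested were called by edgeR, as were 0.00% of 13428 genes, and 0 were called by DESeq2. At an unadjusted p under 0.05 there were 2, EFNA2 (log2 fold change 0.51, SE 0.12, FDR 0.897) and SEMA6B (0.29, SE 0.11, FDR 0.897). Without Dox replicate 1 there were 10 such genes, with 0 called among the 51. EFNA2 measured 2.14, 2.66, 2.28 and 2.59 CPM in the Control libraries and 3.68, 3.67, 2.96 and 3.52 CPM in the Dox libraries. Its Dox libraries lay above all of its Controls, a separation that did not survive adjustment. SEMA6B measured 11.3, 12.5, 10.8 and 12.7 CPM in the Control libraries and 15.5, 15.6, 11.8 and 14.7 CPM in the Dox libraries, with 1 Dox library among the Controls. The log2 fold changes of the 51 genes ranged from -0.29 for SEMA3D to 0.51 for EFNA2. UNC5A (9 to 24 counts), EPHB1 (2 to 10), PLXNA2 (6 to 13) and NTN4 (6 to 15) were too low to be tested.

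To set each response beside that to doxycycline alone, each induced line was compared with Tet-One by the interaction of line and Dox. Since each line was 1 clone, a difference cannot be assigned to the induced factor and not to the clone. Between Tet-MIST1 and Tet-One the passage differed as well. In Tet-PTF1a, 12 of 54 genes differed from Tet-One, against 12.9% of 13506 genes, with 7 differences positive and 5 negative. The difference of log2 fold changes was 2.80 (SE 0.28, FDR 2.99e-06) for SEMA3G, 1.57 (SE 0.47, FDR 0.0250) for EPHB1 and 1.22 (SE 0.24, FDR 0.00248) for EPHB3. The EPHB1 call rests on 2 to 10 counts in each Tet-One library and was lost with a replicate block (FDR 0.0840) and without Tet-One Control replicate 1 or 3. It was also positive for the ligands SEMA3D (1.05), SEMA6B (0.95), SEMA7A (0.61, lost in 4 of 16 fits without 1 library) and EFNA5 (0.38). In the other direction stood SLIT3 at -1.37 (SE 0.20, FDR 1.54e-04), SEMA4B at -1.04 (SE 0.14, FDR 9.22e-05), NRP2 at -0.95 (SE 0.22, FDR 0.00920), DPYSL2 (-0.51) and EPHB6 (-0.38). Tet-One Dox replicate 1 decided how many genes passed, since 26 did so without it. In Tet-MIST1 the response of 1 of 55 genes, UNC5A, differed from Tet-One (1.84, SE 0.28, FDR 0.00159), against 1.66% of 13879 genes, and 14 genes did so without Tet-One Dox replicate 1. For either induced line, the share of all genes without that library is not given here.

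The responses of the induced lines differed from each other for 30 of 54 axon guidance genes, 22 of them with a more positive and 8 with a more negative change in Tet-PTF1a, against 36.4% of 13506 genes. SEMA3G led, at a difference of 3.16 (SE 0.24, FDR 1.29e-09), and measured 0.841 ± 0.155 CPM in Control and 0.766 ± 0.218 CPM in Dox libraries of Tet-MIST1. EPHB1, which rose in Tet-PTF1a and fell in Tet-MIST1, differed by 1.87 (SE 0.22, FDR 4.09e-07), PLXNA2 by 1.40 (SE 0.23, FDR 8.88e-05), SEMA6B by 1.26 (SE 0.11, FDR 5.66e-09) and EPHB3 by 1.03 (SE 0.21, FDR 5.37e-04). PLXNB3 was the reverse case, higher in Tet-MIST1 and lower in Tet-PTF1a, at -0.79 (SE 0.12, FDR 3.44e-05). Its fall in Tet-PTF1a was kept in 2 of 8 fits without 1 library and was not called by DESeq2. SEMA4G differed by -0.60 (SE 0.13, FDR 0.00117). SLIT3 (-1.35, SE 0.12, FDR 2.52e-08) and SEMA4B (-0.84, SE 0.06, FDR 1.29e-09) were lower in Tet-PTF1a than in Tet-MIST1 in their response, SLIT3 having a log2 fold change of 0.00494 in Tet-MIST1. Other differences of at least 0.5 were those of DPYSL5 (0.86), UNC5B (0.69), SEMA7A (0.64), EFNA2 (0.59), EPHA7 (0.57) and EFNA5 (0.54).

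Of these, EPHA7, an A receptor, measured 61.7, 62.4, 58.5 and 56.1 CPM in the Control libraries and 75.9, 71.4, 74.4 and 69.0 CPM in the Dox libraries in Tet-PTF1a, without overlap, and 2.65, 2.97, 2.65 and 3.11 CPM in the Control libraries and 2.03, 2.86, 2.19 and 2.26 CPM in the Dox libraries in Tet-MIST1, with overlap. EFNA5 measured 26.7, 25.6, 22.8 and 28.7 CPM in the Control libraries and 23.4, 21.1, 23.8 and 25.4 CPM in the Dox libraries in Tet-MIST1, where the groups overlapped as well. EFNA2, an A ephrin, measured 4.24, 4.48, 3.62 and 4.64 CPM in the Control libraries and 5.40, 4.29, 5.36 and 5.82 CPM in the Dox libraries in Tet-PTF1a, with 1 Dox library among the Controls. In Tet-MIST1 EFNA2 measured 0.891, 1.26, 1.20 and 0.951 CPM in the Control libraries and 0.966, 0.927, 0.937 and 0.663 CPM in the Dox libraries, and its groups overlapped there. DPYSL5 was at 1.86 ± 0.333 CPM in Control and 1.75 ± 0.441 CPM in Dox libraries of Tet-PTF1a, and UNC5B at 1.86 ± 0.195 and 2.07 ± 0.569 CPM, and neither passed the test in that line. The 54 genes include some that were too low for a test within 1 line, and those tested in both induced lines number 49.

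**Figure D5:**
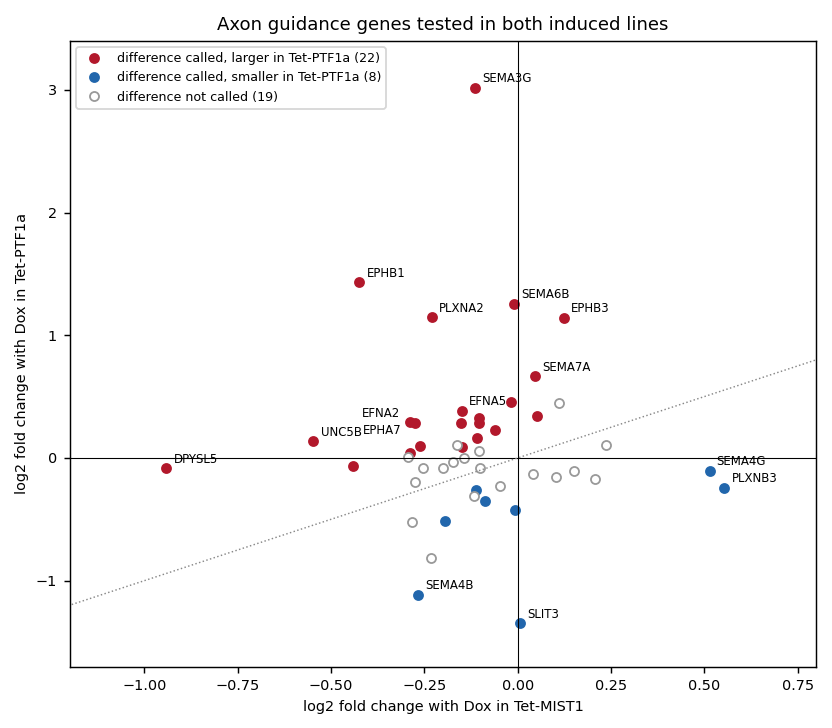
Log2 fold change with Dox in Tet-MIST1 (x) and Tet-PTF1a (y) of the 49 axon guidance genes tested in both lines, with equal change on the dotted line; red and blue points differ between lines at an FDR under 0.05 and open points do not. SEMA3G, EPHB1, SEMA6B, PLXNA2 and EPHB3 lie high above the dotted line, and SLIT3, SEMA4B, SEMA4G and PLXNB3 below it.

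Ligands and receptors that bind each other did not always move together in Tet-PTF1a. SEMA3F, which signals through NRP2, rose by a log2 fold change of 0.34 while NRP2 changed by -1.11. SEMA3A rose by 0.46, its receptor NRP1 changed by -0.26 and its partner plexins PLXNA1 and PLXNA2 by 0.04 and 1.15. SEMA4C and its receptor PLXNB2 stood at 0.09 and -0.35. By contrast, the B ephrin EFNB2 and its receptors EPHB1, EPHB2, EPHB3 and EPHB4 all rose, EPHB4 by 0.23 (SE 0.02, FDR 8.38e-11), while EPHB6 fell and the other B ephrins, EFNB1 and EFNB3, did not pass. SLIT3 and SLIT1 fell, whereas ROBO1 rose.

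Cytoplasmic proteins that act below guidance receptors were counted as a separate list of 52 genes, from general knowledge. In Tet-PTF1a 9 rose and 16 fell of 48 tested, or 18.8% and 33.3%, against 23.8% and 24.4% of all genes, with a median log2 fold change of -0.03. NGEF, a guanine nucleotide exchange factor that binds EPHA receptors, went from 60.9 to 12.8 CPM, log2 fold change -2.23, and MICAL2, of a family of actin oxidases that act below plexins, from 219.6 to 78.1 CPM, log2 fold change -1.49. ABLIM1, an actin-binding protein, changed by -0.34, while the Src-family kinase FYN changed by 0.80 and the actin-severing protein CFL2 by 0.42. In Tet-MIST1 2 rose (FYN 0.34, RRAS 0.21) and 10 fell of 49, against 11.9% and 8.77% of all genes, with DOCK1 (-0.35) and ROCK2 (-0.33) among them, and NGEF changed by -0.22. In Tet-One 0 of 46 passed.

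Guidance molecules outside the named families formed a list of 32 genes. Of 23 tested in Tet-PTF1a, 10 rose and 10 fell, or 43.5% each, against 23.8% and 24.4% of all genes. The chemokine CXCL12 went from 0.293 to 1.53 CPM, log2 fold change 2.23, its receptor CXCR4 from 0.758 to 1.56 CPM, log2 fold change 0.96, and the adhesion molecule NRCAM from 0.182 to 1.17 CPM, log2 fold change 2.14. FLRT2, a ligand of UNC5 receptors, went from 13.8 to 26.4 CPM, log2 fold change 0.94. BOC, a co-receptor for Hedgehog ligands, changed by -0.94 in Tet-PTF1a and by 1.13 in Tet-MIST1, where it led 3 genes that rose, with RGMB (0.41) and SDC1 (0.19), and 3 fell of 20 tested (15% each, against 11.9% and 8.77% of all genes). In Tet-One 0 of 19 passed. All of CXCL12, CXCR4 and NRCAM began below 1 CPM. CXCL12 and NRCAM, counted among the 10 that rose, had Control means below the 0.5 CPM of the filter. They passed it largely through their Dox libraries, the group where they are high. For BOC in Tet-PTF1a, counted among the 10 that fell, the Dox mean of 0.393 CPM was below that limit.

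Promoter letters were compared across all of the genes. RefSeq windows of 250 bases before and 50 bases after the start were found for 51 of 61 axon guidance genes, and CANNTG, searched on both strands, was in 30 of them (58.8%), against 68.9% of 27305 windows of all genes. Beside the shares given above for genes that rose or fell in Tet-PTF1a, it was in 9 of 15 windows of genes that did not pass (60%). The E box CAGCTG, a part of the CANNTG matches, was in 21.6% of the windows against 17.7% of all, and CATCTG in 3.92% against 14.8%. The TC box TGGGAAA, which PTF1a complexes read next to an E box, was in 3 windows (5.88%) against 7.88% of all. It was in 0 of 22 windows of genes that rose in Tet-PTF1a and 1 of 13 of those that fell. An E box and a TC box at the spacings searched were in 0 of the 51 windows, against 0.26% of all. A match describes letters in a window and not a bound site.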

How the data were processed

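RNA-seq counts per gene were analysed for the Tet-PTF1a, Tet-MIST1 and Tet-One lines of Panc-1, with 4 Control and 4 Dox libraries each. Groups and replicate numbers came from the sample labels. The authors sequenced paired ends, aligned to hg19 with TopHat and deposited raw counts without normalization, 1 table per line after their own filter. The processing notes also name HTSeq, DESeq and edgeR, while the counting settings, annotation and use of strand are not given in the sources used here. Exon lengths are those in the deposited tables. The tables' scaled CPM and the authors' own comparison (fold change, p-value and FDR) were not used, and 20 gene names per table had turned into dates.

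Dox and Control libraries of a line were compared with edgeR 4.0.16 in R 4.3.3, by the quasi-likelihood test with robust estimation, two-sided, and TMM scaling. Genes above 0.5 CPM in at least 4 of 8 libraries were tested, and FDR is the Benjamini-Hochberg adjusted p over all of them. Genes at an FDR under 0.05 are called higher or lower, with no limit on size. Log2 fold changes use a prior count of 2, and standard errors come from the F statistic. CPM in the text was computed from the counts with TMM factors within a line, or over all 24 libraries and 13506 shared genes where lines or genes are set side by side. Responses of lines were compared by the interaction of line and Dox. Library sizes set how small a change could be seen, most of all for genes near 1 CPM. The scripts were tested on simulated data.

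The genes and lists were chosen with earlier results of these data known, so counts over them are descriptions beside those of all genes. Genes are named with the value of each library where they passed the test at a log2 fold change of at least 0.5 in size and a mean of at least 1 CPM (at most 20 a line), or where responses of lines differed by at least 0.5; other genes are given by their log2 fold change or their count, and EPHA10, NRP1 and the pairs of ligand and receptor were chosen after their values were seen. Overlaps were computed from the deposited hg19 exons and from GENCODE on the same build, and promoter windows were read from RefSeq GRCh38.p14 by gene symbol. Alternatives were other scalings, filters and prior counts, DESeq2 1.42.0, a replicate block, a correction for exon length and GC content (their trend removed from each library), 1 fit of all 24 libraries, and leaving out each library.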

Additional observations from a re-analysis of the deposited data

Results flagged for a closer look

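In 4 of 114 groups of 4 libraries, 1 library lay far from the other 3 by Dixon's criterion, which chance alone meets in about 1 group in 20. They were EPHB1 in Tet-PTF1a Dox replicate 2 (2.4 CPM, below the others), SEMA3D in Tet-MIST1 Dox replicate 2 (0.0530 CPM, where the others had 0 counts), EPHB3 in Tet-One Control replicate 2 (1.54 CPM, above the others) and NRP2 in Tet-One Dox replicate 1 (2.58 CPM, below the others).

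The Dox response differed between lines by the interaction test, with a difference of at least 0.5 on the log2 scale, in 26 cases. Tet-PTF1a exceeded Tet-One for SEMA3G (2.80), EPHB1 (1.57), EPHB3 (1.22), SEMA3D (1.05), SEMA6B (0.95) and SEMA7A (0.61), and was below it for SLIT3 (-1.37), SEMA4B (-1.04), NRP2 (-0.95) and DPYSL2 (-0.51). Tet-MIST1 exceeded Tet-One for UNC5A (1.84). Tet-PTF1a exceeded Tet-MIST1 for SEMA3G (3.16), EPHB1 (1.87), PLXNA2 (1.40), SEMA6B (1.26), EPHB3 (1.03), DPYSL5 (0.86), UNC5B (0.69), SEMA7A (0.64), EFNA2 (0.59), EPHA7 (0.57) and EFNA5 (0.54), and was below it for SLIT3 (-1.35), SEMA4B (-0.84), PLXNB3 (-0.79) and SEMA4G (-0.60). These comparisons share libraries of each line, so they are not independent of each other.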

How the results depend on the processing

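With a replicate block, Tet-MIST1 had 3 axon guidance genes higher and 7 lower, and Tet-PTF1a 25 and 14. Of all genes, 10.7% were then called in Tet-MIST1, against 20.6% as reported, and 47.7% in Tet-PTF1a, against 48.2%. Between libraries of equal replicate number, the correlations of deviations from the group mean ran from -0.322 to 0.267. With means of 4 libraries, these cannot decide whether such libraries were paired. In 1 fit of all 24 libraries there were 15 higher and 9 lower in Tet-PTF1a and 2 and 7 in Tet-MIST1, and with a limit of 1 on the log2 fold change 7 and 3 in Tet-PTF1a and 1 and 0 in Tet-MIST1. The shares of all genes in that fit and beyond that limit are not given here. With 1 library left out, counts ran from 23 to 25 higher and 12 to 15 lower in Tet-PTF1a, and from 3 to 4 higher and 8 to 19 lower in Tet-MIST1, with 19 reached without Dox replicate 2. Without that library 27.6% of all genes were called in Tet-MIST1. Genes whose response differed from Tet-One ran from 10 to 26 in Tet-PTF1a and from 1 to 14 in Tet-MIST1, both highest without Tet-One Dox replicate 1, and from 27 to 35 between the induced lines. The shares of all genes in these fits of responses are not given here. In Tet-MIST1 against Tet-One the count was 2 with library size for scaling and 5 with DESeq2. The cause was not tested. In Tet-One 0 axon guidance genes were called in every alternative, while 1 of all 13448 genes was called without Dox replicate 1. Library size for scaling gave 26 higher and 13 lower in Tet-PTF1a, and the correction for exon length and GC content 23 and 16; of all genes called there, 61.9% and 35.1% were higher, against 49.4% as reported.

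Of 832 values of single genes under the alternatives 819 kept their direction and side of the threshold, 0 changed direction and 13 no longer passed. The latter were UNC5B in Tet-MIST1 in the fit of all libraries (FDR 0.0504), the differences from Tet-One of EPHB1 (replicate block, FDR 0.0840, and without Tet-One Control replicate 1 or 3) and SEMA7A (4 fits), and those between the induced lines of EFNA2 (4 fits) and DPYSL5 (without Tet-PTF1a Dox replicate 4). Genes near 1 CPM, such as DPYSL5, SEMA5B and SLIT1, had standard errors of 0.17 to 0.21, so small changes of such genes were not detectable at this depth.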

Other observations

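Single genes of low abundance had rows in the Tet-PTF1a table alone, namely ROBO2, NTN3, EPHA3, SEMA5B, SEMA6A and EPHA6, while UNC5A had rows in the other tables only, so these genes could not be set side by side between an induced line and Tet-PTF1a. EPHA5-AS1, which overlaps EPHA5 on the opposite strand, rose in Tet-PTF1a by a log2 fold change of 0.82 (FDR 0.00657), beside the increase of EPHA5. Its Control mean of 0.388 CPM was below the 0.5 CPM of the filter. EPHA5-AS1 passed that filter largely through its Dox libraries, the group where it is high. BOC moved in opposite directions in the induced lines (log2 fold change -0.94 in Tet-PTF1a and 1.13 in Tet-MIST1), and the difference was not tested.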
